A study of Mus musculus with 8 samples.

Results

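Ctse, Ren1, Il10 and Fcer1a are 4 genes of mouse chromosome 1 whose signal in lymph node cells enriched for CD8 T cells differed between PD-1KO and WT mice. They were described here with 6 genes that lie near Ctse and Il10, namely Mapkapk2, Rassf5, Ikbke, Srgap2, Elk4 and Eif2d. The first 4 were chosen by their difference between PD-1KO and WT in these same arrays, and the other 6 as near neighbours of Ctse and Il10. Not every near gene was taken: Fam72a and Rab7b, the tested genes on either side of Ctse, are no members. Every PD-1KO minus WT value of a member is therefore given as a description, with no test. These are 10 of 22907 genes with a symbol on the array. They are read by 17 probes, and all 10 have at least 1 probe among the 21232 features tested.

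CD8 T cells were enriched with CD8a beads from lymph nodes of C57BL/6 mice, and their total RNA was hybridised to 8 one-colour Agilent arrays on 1 slide. Each array is 1 group: mice 2 months old (young) or 17 months old (aged), wild type (WT) or lacking PD-1 (PD-1KO, written PD-1-/- in the series design), and either tumor-free or killed 9 days after they received MC38 cells, a mouse colon carcinoma line. Tumor-free mice gave peripheral lymph nodes and tumor-bearing mice draining lymph nodes, so the tumor comparison also compares node sites. No group has a replicate, and how many mice gave RNA to an array is not given in the sources used here. Each factor therefore compares 4 arrays with 4, and the error of a difference comes from how far the arrays depart from additive effects of age, genotype and tumor. The number of arrays limits the precision.

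Levels are log2 of the spot signal minus that array's 75th percentile, so a level of 0 is the 75th percentile. A spot is called well above background by the scanner software, and the dimmest such spots of each array lay between -3.95 and -3.52. CD8 T cell marker genes were high on every array, with a signal summed over 10 genes of 1161 to 1491 times the 75th percentile. The scanner software put 26276 to 27996 probes of an array well above background and marked none as saturated. The Pdcd1 probe, which reads the gene removed in PD-1KO mice, does not separate the genotypes. Its level was -0.79 (young WT), 1.03 (young WT with tumor), -0.10 (aged WT) and 2.73 (aged WT with tumor), against -1.45, -0.35, 1.87 and 2.74 on the matching PD-1KO arrays. The mean difference, PD-1KO minus WT, was -0.02 (SE 0.49). No source used here says which part of Pdcd1 was removed or which part the probe reads, so it checks no label.

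Of the 4 differing members, Ctse and Ren1 encode aspartic proteases and the other 2 encode a cytokine and a receptor chain. Ctse encodes cathepsin E, an intracellular aspartic protease of immune and mucosal cells. Ren1 encodes renin, an aspartic protease secreted by the kidney that cuts angiotensinogen and opens the renin-angiotensin cascade. Il10 encodes interleukin 10, a cytokine that restrains inflammation and is made by activated and regulatory T cells, B cells and macrophages, acting through the receptor chains Il10ra and Il10rb and the transcription factor Stat3. Fcer1a encodes the chain of the high-affinity IgE receptor that binds IgE, and is a defining surface protein of mast cells and basophils. In the RefSeq gene order of chromosome 1, Il10, Mapkapk2, Eif2d, Rassf5, Ikbke, Srgap2, Ctse, Elk4 and Ren1 come in that order over a short stretch. Other genes lie between some of them, such as Fam72a between Srgap2 and Ctse. Pdcd1 lies 98 genes before Il10, 107 before Ctse and 134 before Ren1. Fcer1a is not part of that stretch: it lies 455 genes beyond Pdcd1 and 348 beyond Ctse.

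Promoter sequence was matched for 8 of 10 members in the RefSeq table for the mouse build GRCm38.p6; Ctse and Il10 were not matched. The 250 bases before the annotated start are printed for Ren1 and Fcer1a, the matched genes with a large genotype difference in opposite directions, and for Mapkapk2, the neighbour next to Il10 whose level was nearly flat. The stretches are chr1:133350424-133350673 (plus strand) for Ren1, chr1:173227230-173227479 (minus strand) for Fcer1a and chr1:131097844-131098093 (minus strand) for Mapkapk2. Each is written 5′ to 3′ on the gene's own strand, and capitals mark every match to 1 of 6 motifs searched on both strands. The motifs were the TATA box TATAAA, ETS family motifs GAGGAA and CCGGAA (which share the letters GGAA), the GATA motif AGATAA, the GC box GGGCGG and the E box CAGCTG.
Ren1: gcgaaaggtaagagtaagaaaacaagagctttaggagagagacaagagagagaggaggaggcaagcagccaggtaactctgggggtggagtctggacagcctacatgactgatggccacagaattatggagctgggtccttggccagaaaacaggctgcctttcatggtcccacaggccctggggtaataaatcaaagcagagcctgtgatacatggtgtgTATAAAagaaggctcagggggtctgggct
Fcer1a: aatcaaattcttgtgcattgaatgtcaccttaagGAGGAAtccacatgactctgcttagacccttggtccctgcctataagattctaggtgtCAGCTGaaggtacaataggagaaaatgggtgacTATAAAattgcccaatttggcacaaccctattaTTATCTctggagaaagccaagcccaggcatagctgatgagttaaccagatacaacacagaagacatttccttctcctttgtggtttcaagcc
Mapkapk2: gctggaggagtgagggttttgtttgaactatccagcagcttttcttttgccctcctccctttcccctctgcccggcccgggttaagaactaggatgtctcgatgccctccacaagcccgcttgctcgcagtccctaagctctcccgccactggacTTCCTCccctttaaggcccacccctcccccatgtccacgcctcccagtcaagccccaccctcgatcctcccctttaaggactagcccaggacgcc
The Ren1 window holds TATAAA from base -29 to -24 before the start. The Fcer1a window holds GAGGAA from -216 to -211, CAGCTG from -158 to -153, TATAAA from -125 to -120 and AGATAA on the opposite strand from -92 to -87. The Mapkapk2 window holds GAGGAA on the opposite strand from -95 to -90. None of the printed matches overlaps another. Of 32851 promoter windows of the same length, 12.4% hold TATAAA, 23.3% GAGGAA, 12.0% CCGGAA, 9.99% AGATAA, 32.7% GGGCGG and 13.0% CAGCTG. These are matches of letters and not measured binding sites.

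Ctse was far higher on every PD-1KO array than on any WT array. Its level was -0.25 in young WT, -0.10 in young WT with tumor, -0.11 in aged WT and -0.39 in aged WT with tumor. On the PD-1KO arrays it was 4.46 in young, 3.87 in young with tumor, 4.15 in aged and 3.73 in aged with tumor. The WT arrays lie together near the 75th percentile, the PD-1KO arrays lie together far above it, and the genotypes do not overlap. The mean difference was 4.26 (SE 0.14), which is 19.2-fold, and the 4 pairs of arrays that differ in genotype alone ran from 3.96 to 4.71. The probe was well above background on all 8 arrays. The other differences were small: aged minus young was -0.15 (SE 0.14, adjusted p = 0.471, limma) and tumor minus tumor-free -0.29 (SE 0.14, adjusted p = 0.294, limma). Among other cathepsins and aspartic proteases, 15 of 17 listed genes were tested and 0 passed the test for genotype in either direction, and their median difference was -0.02 beside -0.03 over all features. With age, where 10.8% of all features passed, 2 of the 15 rose and 1 fell. Ctsf, a lysosomal cysteine protease, rose by 2.04 and Ctsb by 0.58, and Bace1, a membrane aspartic protease, fell by 1.36. Ctsf was well above background on 6 arrays. Its young arrays with tumor, at -4.11 (WT) and -4.37 (PD-1KO), lay below the dimmest such signal, so its 2.04 is in measured signal.

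Ren1 was measurable on the PD-1KO arrays alone. Its level was -2.12 in young PD-1KO, -1.80 in young PD-1KO with tumor, -1.68 in aged PD-1KO and -1.31 in aged PD-1KO with tumor, and all 4 were well above background. The WT values, -4.22 and -4.26 in young and -3.77 and -3.63 in aged mice, were not well above background on any array. The genotypes do not overlap. Ren1 passed the filter on dim probes only through the PD-1KO arrays, where it is high. The measured means differ by 2.24 (SE 0.11). A floor was set at the dimmest signal well above background on each WT array, where that exceeded the Ren1 signal itself. Against this floor Ren1 was at least 3.84-fold higher in PD-1KO in the signal used here. That bound does not hold under another background correction, since normexp gave a mean difference of 0.92. Within each genotype the aged arrays lay above the young ones by 0.44 to 0.62. The aged minus young difference of 0.50 (SE 0.11) passed with an adjusted p of 0.0369 (limma), but each array left out in turn put it between 0.0568 and 0.126. Of the 7 other alternatives that could be computed for Ren1, 5 also gave a value above 0.05, at up to 0.128. Both young and aged arrays had Ren1 well above background on the 2 PD-1KO arrays only. The tumor difference was 0.19 (adjusted p = 0.334, limma). Ren2, a near-identical renin gene that some mouse strains carry, has its own probe, which was well above background on 1 array and ran from -5.70 to -3.81. Whether the Ren1 probe would also read Ren2 was not tested. Of 12 genes listed for the renin-angiotensin system, 2 were tested, Atp6ap2 (the prorenin receptor) and Lnpep (an aminopeptidase), and 0 passed for genotype, age or tumor. Agt, the substrate of renin, was well above background on 0 arrays.

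Il10 was higher on each aged, PD-1KO or tumor array than on the array that differs from it in that factor alone. From the lowest to the highest array its level was -4.72 in young WT, -3.56 in young WT with tumor, -2.98 in young PD-1KO, -1.81 in aged WT, -1.18 in young PD-1KO with tumor, -0.52 in aged WT with tumor, 0.19 in aged PD-1KO and 2.12 in aged PD-1KO with tumor. The first 2 of these were not well above background. With 1 array a condition, neighbours in this order have no spread of their own. In each of the 4 matched pairs the PD-1KO array lay above its WT partner, by 1.73 to 2.64, with a mean difference of 2.19 (SE 0.16) in measured signal. The aged pairs, in which all arrays were well above background, differed by 2.00 and 2.64. Normexp background correction gave a mean of 1.38. The genotypes nevertheless overlap as groups, because the aged WT arrays exceed the young PD-1KO array without tumor.

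The age difference of Il10 was its largest. Aged arrays exceeded their young partners by 2.91 to 3.30, with a mean of 3.11 (SE 0.16) in measured signal (adjusted p = 0.0014, limma). It was well above background on 4 of 4 aged and 2 of 4 young arrays, and the PD-1KO pairs, measured on both sides, differed by 3.18 and 3.30. Normexp gave a mean of 1.94. The difference passed under each of the 7 alternatives that could be computed for Il10, with adjusted p from 0.000699 to 0.021, and without any 1 array, with adjusted p from 0.00277 to 0.0125. Arrays with tumor also lay above their tumor-free partners in 4 of 4 pairs, by 1.54 (SE 0.16) on average, which missed the threshold at an adjusted p of 0.055 (limma). That call depends on the setting: the adjusted p was 0.0464 with quantile normalization, 0.023 with no scaling, 0.0489 with the mean of a gene's probes and 0.0274 with an intensity trend, against 0.114 at the highest. With an array left out it ran from 0.0396, without the young PD-1KO array with tumor, to 0.177, and 7 of the 8 stayed above 0.05.

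Several genes of the interleukin 10 pathway rose with age. Of 11 tested of 16 listed, 5 rose and 0 fell with age, where 6.25% of all features rose and 4.57% fell, and the median was 0.38 beside -0.07 over all features. Maf, a transcription factor of interleukin 10 producing T cells, rose by 2.39, Il10ra by 1.88, Prdm1, which encodes Blimp-1, by 1.64, Socs3, a feedback inhibitor of cytokine signalling, by 1.08 and Il10rb by 0.49. The range of adjusted p over these 5 was 0.0107 to 0.0433 (limma). For genotype and for tumor 0 of the 11 passed. Il19, Il20 and Il24, the interleukin 10 family genes that lie beside Il10, were well above background on 0 arrays.

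Other cells of the node also express Il10, and markers of several rose with age. With age 6 of 12 tested macrophage and monocyte markers, 3 of 8 B cell, 3 of 5 plasma cell, 3 of 9 dendritic cell and 1 of 7 regulatory and CD4 T cell markers rose and 0 fell, beside the 6.25% of all features that rose. Markers listed for further cell types rose too: 4 of 6 for neutrophils (median 2.44), 3 of 6 for NK cells (median 1.51) and 1 of 3 for erythroid cells (median 2.49). In the NK list Klre1, Klra8 and Eomes rose, while Klrb1c, Klrk1 and Gzma did not pass. Ncr1, also in that list, was well above background on 0 arrays. Whether the 3 that rose were read from NK cells was not tested. The erythroid sum was 45.5 on the aged WT array and 0.371 to 3.38 on the others, with a median PD-1KO minus WT difference of -2.24. The summed B cell marker signal ran from 18.4 to 21.5 on young and from 22.4 to 41.3 on aged arrays, and the macrophage sum from 32.0 to 45.2 and from 49.2 to 60.3. For genotype 0 markers of these lists passed. The regulatory and CD4 T cell markers had a median PD-1KO minus WT difference of 0.50. Single genes ran from -0.26 for Cd4 to 0.79 for Ctla4, with Foxp3 at 0.09. Ctla4 and Ikzf2, at 0.60, are themselves genes of chromosome 1. The sum of these markers ran from 13.7 to 18.0 on WT and from 14.2 to 26.8 on PD-1KO arrays. The part of these cells in the Il10 difference was not tested. In such bulk RNA, more cells of a type and more RNA per cell cannot be told apart.

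Fcer1a went the other way with genotype. Its level on WT arrays was -3.77 in young, -3.82 in young with tumor, -2.53 in aged and -2.49 in aged with tumor. On the PD-1KO arrays it was -4.76, -4.92, -3.54 and -3.53 in the same order. Each PD-1KO array lay below its WT partner by nearly the same amount (-1.10 to -0.99, mean -1.03, SE 0.09), while the groups as a whole overlap. The gene was near the limit of detection: it was well above background on 3 of 4 WT and 1 of 4 PD-1KO arrays, and on 1 of 4 young and 3 of 4 aged arrays. Aged arrays exceeded young ones without overlap, by 1.29 (SE 0.09) in measured signal (adjusted p = 0.00223, limma). The only pair with both arrays well above background, the tumor-free WT arrays, differed by 1.24. The size depends on the background correction, since normexp gave 0.42. The age difference passed under each of the 7 alternatives that could be computed for it, with adjusted p from 0.00221 to 0.0338, and without any 1 array, from 0.00529 to 0.0192. The tumor difference was -0.04 (adjusted p = 0.821, limma).

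Mast cell genes rose with age too. Of 12 mast cell and basophil markers, in a list that does not hold Fcer1a, 7 were tested; with age 4 rose and 0 fell, beside 6.25% of all features that rose, with a median of 1.80. Cpa3, Mcpt4 and Tpsb2, proteases of mast cell granules, rose by 2.41, 2.65 and 1.80, and Hdc, which makes histamine, by 1.20. For genotype 0 of the 7 passed, with a median PD-1KO minus WT difference of -0.97. Their summed signal ran from 1.55 to 13.6 on WT and from 1.32 to 5.49 on PD-1KO arrays, and from 1.32 to 4.73 on young and 4.30 to 13.6 on aged arrays. Ms4a2, another chain of the IgE receptor, and Mcpt8, Prss34 and Cd200r3, which mark basophils, were well above background on 0 arrays. The part of mast cells in the Fcer1a differences was not tested. Among signalling genes of the receptor, 2 of 9 tested rose with age and 0 fell. These were Fcer1g, the shared signalling chain, by 1.02, and the kinase Syk by 0.97. For genotype 0 of the 9 passed.

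**Figure D1:**
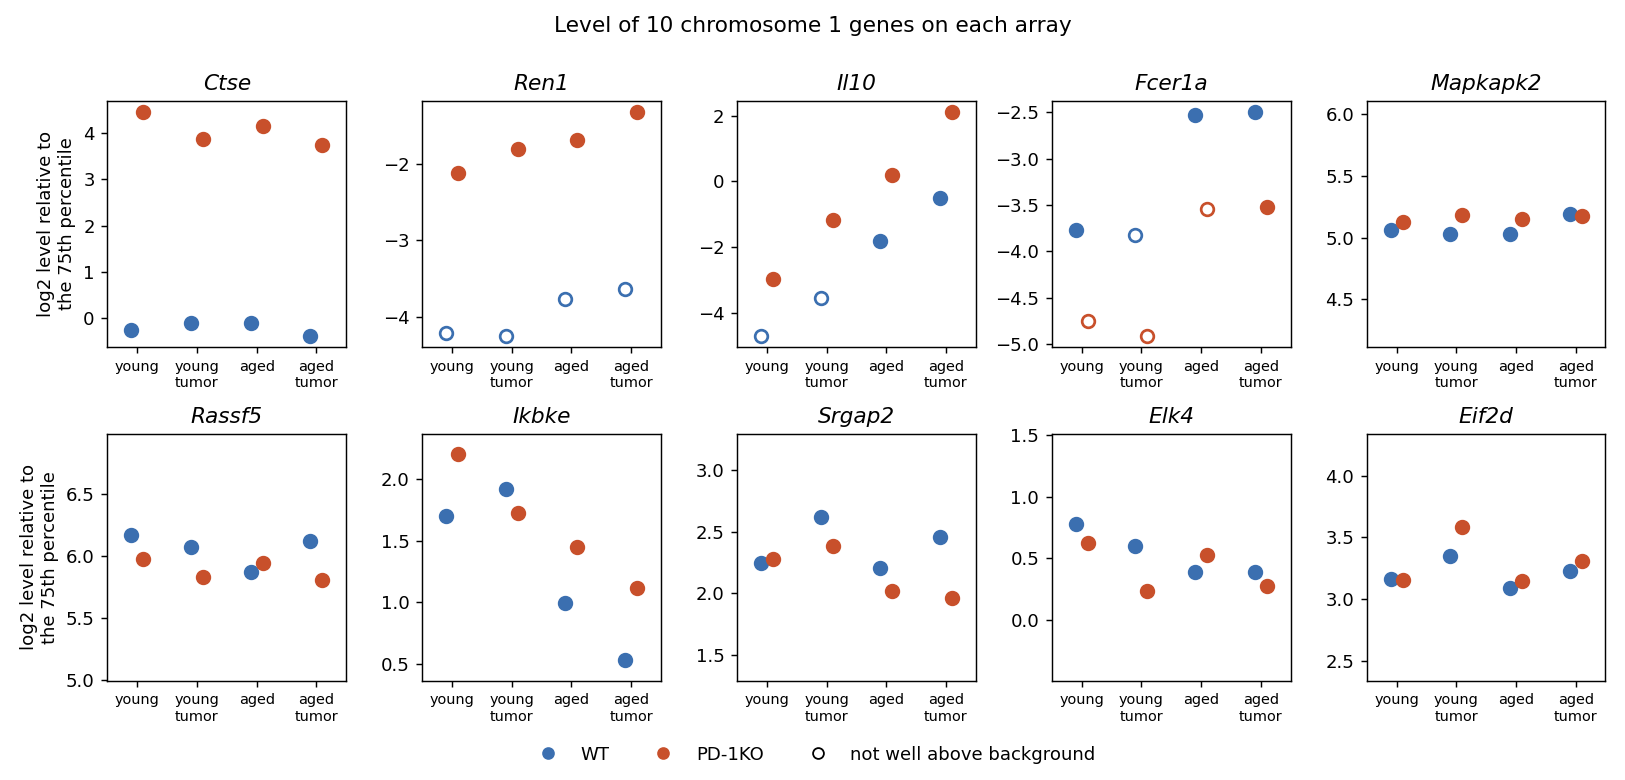
Log2 level of the 10 members on each of the 8 arrays, relative to the array's 75th percentile, WT in blue and PD-1KO in orange; open points were not well above background and each panel has its own vertical range. Ctse and Ren1 separate the genotypes, Il10 rises with age within each genotype and tumor state, Fcer1a is lower on every PD-1KO array than on its WT partner, and the highest Mapkapk2 level is 5.19 and the lowest 5.03.

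The 6 neighbours, which are not all the genes near Ctse and Il10, had smaller genotype differences on the brightest probe of each. That probe stands for the gene unless another is named. There their PD-1KO minus WT differences ran from -0.22 to 0.34, and for all 6 the genotypes overlapped, where 2.55% of all features had no overlap. Mapkapk2 encodes MK2, a kinase that acts below p38 and stabilises cytokine messenger RNAs. It is the gene next to Il10, and its level stayed between 5.03 and 5.19 on all arrays while Il10 spanned -4.72 to 2.12. Its difference was 0.08 (SE 0.09) with genotype, 0.04 (SE 0.09) with age and 0.05 (SE 0.09) with tumor. Rassf5, whose protein RAPL links Rap1 to integrin adhesion in lymphocytes, ran from 5.80 to 6.18, with a genotype difference of -0.17 (SE 0.11). Elk4, an ETS transcription factor that partners with serum response factor, ran from 0.23 to 0.78 (genotype -0.12, SE 0.11).

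Ikbke, which encodes an IKK-related kinase of interferon and NF-kappaB signalling, changed with age. Its level was 1.70, 1.92, 2.20 and 1.72 on the young arrays (WT, WT with tumor, PD-1KO, PD-1KO with tumor) and 0.99, 0.53, 1.45 and 1.12 on the aged arrays in the same order. Every aged array lay below every young array. Ikbke fell by 0.86 (SE 0.16), or was 1.82-fold lower, with an adjusted p of 0.0273 (limma). Leaving out an array kept the call in 2 of 8 cases, without either aged WT array. It was lost without any 1 of the other 6 arrays, at 0.054 to 0.0787, and in the model with interactions, at 0.0851. Its genotype difference was 0.34 (SE 0.16), the largest of the 6 neighbours on the brightest probes. Among 13 tested IKK-related genes, 1 rose and 1 fell with age: the adaptor Tbkbp1 rose by 1.06 and Azi2, another adaptor of the kinase, fell by 0.39.

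Srgap2 and Eif2d show how far probes of a gene can disagree. Srgap2 regulates cell shape through Rac and membrane curvature. Its brighter probe ran from 1.96 to 2.62 and was slightly lower in PD-1KO (-0.22, SE 0.11). Its dimmer probe read 0.06, 0.19, -0.46 and -0.20 on the WT arrays (young, young with tumor, aged, aged with tumor) and 0.47, 0.33, 0.27 and 0.38 on the PD-1KO arrays. There every PD-1KO array lay above every WT array, which is opposite in sign to the brighter probe. Its mean difference was 0.47, and the mean of both probes gave 0.12. Eif2d, a translation factor that loads initiator tRNA and recycles ribosomes, ran from 3.09 to 3.59 on its brightest probe (genotype 0.09, SE 0.10), from 0.56 to 1.45 on the next and from -3.01 to -1.92 on the third. The other 2 probes had genotype differences of 0.37 and 0.46, and the mean of the probes gave 0.31. On its brightest probe Eif2d was also higher on every array with tumor than on every tumor-free array, by 0.23 (SE 0.10, adjusted p = 0.24, limma). On the other 2 probes, with tumor differences of 0.25 and 0.34, the groups overlapped. Among the members' brightest probes it was the only one whose tumor groups did not overlap, beside 7.3% of all features. The second Rassf5 probe ran from -2.01 to -1.30 and the second Elk4 probe from -1.45 to -0.84, without separating the genotypes. A further probe each of Ikbke and Elk4 was well above background on 0 arrays.

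Of 46 tested genes in 4 lists around these neighbours, 7 (15.2%) passed the age test, beside 10.8% of all features, and 0 passed for genotype or tumor. In the p38 and MK2 list, 1 of 12 rose with age (Mapk13, a p38 kinase, by 1.54) and 1 fell (Map2k6, a kinase that activates p38, by 0.41). Mapk13 was well above background on 4 arrays. Its young levels, -4.30 to -3.97, lay below the dimmest signal well above background on each of those arrays. It thus passed the filter only through the aged arrays, where it is high, and its call is 1 of the 7. Of 16 genes of Rap1, RAPL and MST kinase signalling, 0 rose and 1 fell (Fermt3, kindlin-3 of integrin activation, by 0.60). Of 8 srGAP and ETS genes, 1 rose (Srgap3, by 0.92) and 1 fell (Mcl1, a survival gene, by 0.62). Of 10 translation factors, 0 rose and 2 fell (Eif2a by 0.67 and Denr by 0.59). The medians of these 4 lists with age were 0.08, 0.04, -0.02 and -0.23, beside -0.07 over all features.

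**Figure D2:**
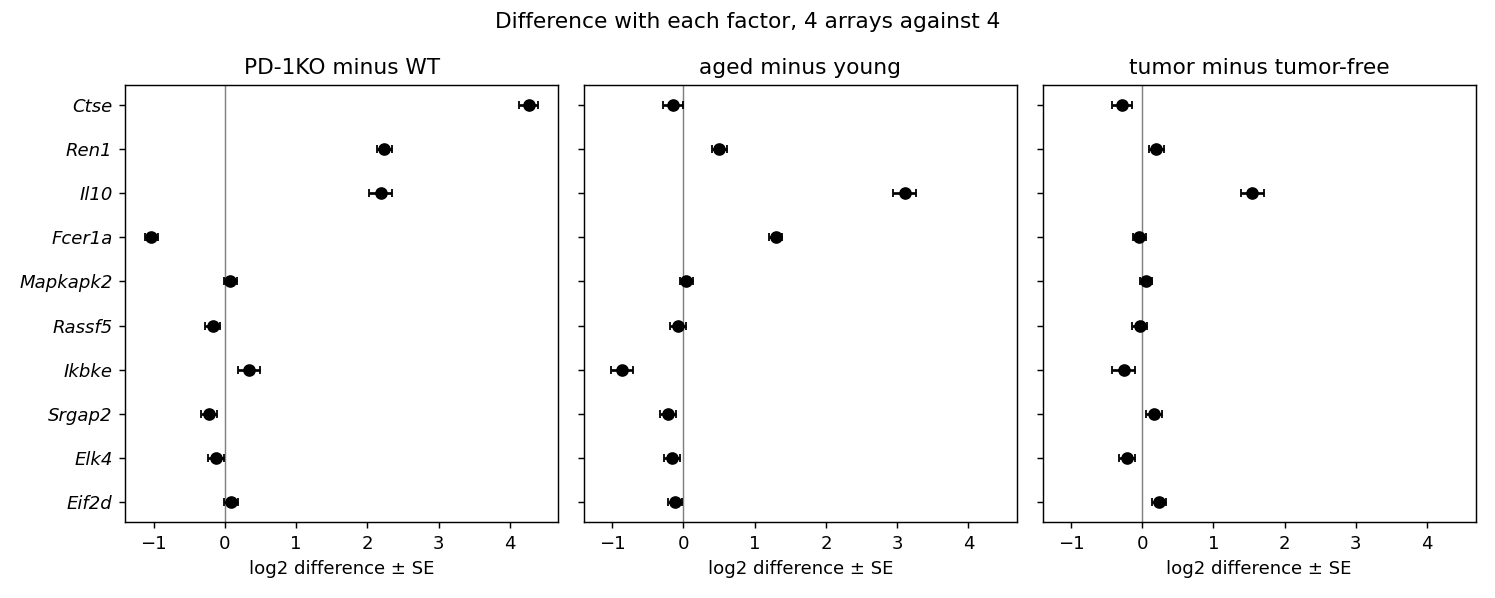
Log2 difference with its SE for each member by genotype, age and tumor, 4 arrays against 4, all on 1 scale. Ctse has the largest genotype difference (4.26), Il10 the largest age (3.11) and tumor (1.54) differences, and the 6 neighbours, each by its brightest probe, stay within -0.22 and 0.34 for genotype, while Ikbke is at -0.86 for age.

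Across all features, 0.0283% (6 of 21232) passed the genotype test, 0.0188% higher and 0.00942% lower in PD-1KO. Of the members, 3 were higher and 1 lower past that threshold, which their choice fixed. The member just inside it was Fcer1a at -1.03, and the first feature outside was Pam, also on chromosome 1, at 1.88 (SE 0.18). With age, 10.8% of all features passed, 6.25% higher and 4.57% lower. Of the 10 members, 3 rose (Il10, Fcer1a and Ren1), 1 fell (Ikbke) and 6 did not pass. The 3 that rose were chosen by genotype, and the fit gives a gene the same SE for age as for genotype. That choice favours genes with a small SE, so their age calls are not free of it. Non-overlap with age held for 2 of 10 members, Fcer1a and Ikbke, beside 20.2% of all features. With tumor, 0% of all features passed by limma, and 0 of 10 members did; at an unadjusted p below 0.05 the counts were 20.6% of features and 2 members, Il10 and Eif2d. Other settings called 0 to 330 features with tumor. Per the barcodes in the file headers, slide positions follow the order of the groups, so position and age cannot be told apart, nor position and genotype within an age.

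Whether a difference of 1 factor depended on another was tested for each member with limma. None of the 30 interactions passed (adjusted p of 0.993 or more, lowest unadjusted p 0.0687), beside 0% of all features. That lowest value was Il10, whose PD-1KO minus WT difference was 2.38 and 2.64 in the tumor pairs and 1.73 and 2.00 in the tumor-free pairs, a difference of 0.64 (SE 0.27). For Ctse the same comparison gave -0.44 (SE 0.30). These tests rest on 1 residual degree of freedom.

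The genotype differences lay more densely on chromosome 1, which carries Pdcd1, than on other chromosomes. All 4 features that passed and could be placed on a chromosome were on chromosome 1, which is 0.484% of its 826 tested features. They are Ctse, Ren1, Il10 and Fcer1a, the members chosen as differing genes of this chromosome, so this count is a description. The other 2, AK018050 (-1.24) and XR_398749 (1.42), have no chromosome in the gene table. With a looser rule chosen after the calls were seen, an unadjusted p below 0.001, 17 of 826 chromosome 1 features (2.06%) passed, beside 0.259% of all features and 0.31% of those placed. No other chromosome exceeded 0.515%. Without the members the shares were 1.59% (13 of 816) on chromosome 1 and 0.24% overall. Of the 17, 8 were higher and 9 lower in PD-1KO. A difference of more than 1 on the log2 scale was seen for 2.3% of chromosome 1 features and 0.98% of all placed ones, whereas the median absolute difference was 0.158 and 0.136. The share of chromosome 1 features among all that passed ran from 16% to 40.4% over the alternatives. In the main setting chromosome 1 holds 826 of the 21232 features, and settings that test another set of features have another base. The 40.4% came from testing the 12820 features with a symbol alone. The count of 17 was 8 in the model with interactions and 11 in the authors' deposited table. Left-out arrays gave 9 (young WT), 11 (young WT with tumor), 11 (aged WT) and 10 (aged PD-1KO). No such density was seen for the other factors at their own rules. Age calls made up 14% of chromosome 1 features and 11.3% of placed ones, and the tumor shares at an unadjusted p below 0.001 were 2.06% and 1.73%, beside 1.46% of all features.

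**Figure D3:**
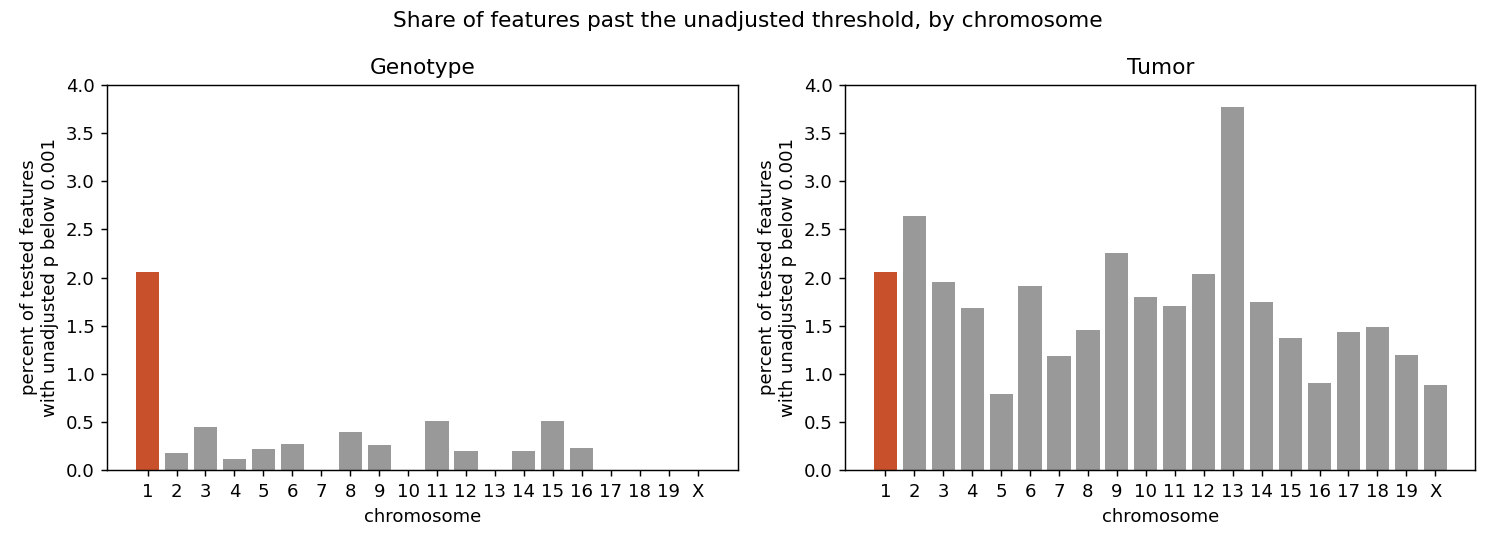
Percent of tested features with an unadjusted p below 0.001 on each chromosome, for genotype (left) and tumor (right), bars from 0 and chromosome 1 in orange. For genotype chromosome 1 stands at 2.06% and no other chromosome exceeds 0.515%, whereas for tumor chromosome 1, at 2.06%, lies within the range of the others.

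Along the chromosome, 15 of the 17 features have a place in the gene order, 6 before Pdcd1 and 9 beyond it. The 9 include Il10, Ctse, Ren1 and Fcer1a, which were chosen by this same contrast. In bins of 100 genes, the bin that holds Pdcd1 had 4 of 52 tested genes past that rule (7.69%), none of them a member. The next bin had 3 of 62 (4.84%), which are Il10, Ctse and Ren1 themselves, so their choice fixed that count. The bin after it had 3 of 62, none of them a member. Of the 12 bins, 5 held none. The bin with Fcer1a had 2 of 49, Fcer1a itself and Efcab2. Close to Pdcd1 lay Pam, an enzyme that amidates peptides (10 genes beyond, 1.88), Stk25, a kinase of the Golgi (11 genes before, -1.42), and D2hgdh, a mitochondrial dehydrogenase (5 genes before, -0.60). These 3 and the genes in the next sentences were chosen after their values were seen. Stk25 read 3.09, 2.87, 3.25 and 3.47 on the WT arrays (young, young with tumor, aged, aged with tumor) and 1.85, 1.51, 2.17 and 1.47 on the PD-1KO arrays, with no overlap. Pam read -4.15, -4.25, -3.18 and -3.99 on the WT arrays in the same order, and -2.08, -2.33, -1.95 and -1.71 on the PD-1KO arrays.

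Farther out, Rab17, a small GTPase of epithelial trafficking, lay 57 genes before Pdcd1. It was well above background on the 4 PD-1KO arrays, at -2.40 to -1.09, and on 0 WT arrays, at -5.92 to -3.73, so it passed the filter only through PD-1KO. Bounded as for Ren1 it was at least 3.97-fold higher in PD-1KO in the signal used here, with a measured mean difference of 3.17 (SE 0.47). Lad1 (-1.70) lay 177 genes beyond Pdcd1 and Armc9 (1.43) 113 before it. Slc40a1, which encodes the iron exporter ferroportin, lay 365 genes before Pdcd1 and differed by -1.76 (SE 0.25). Its aged WT arrays stood at -0.83 and -0.89 and its other arrays from -5.81 to -2.23. The genotypes did not overlap for 14 of the 17 features, beside 2.55% of all features, and the 17 were chosen by the same contrast. The other 3 are Il10, Fcer1a and Slc40a1.

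**Figure D4:**
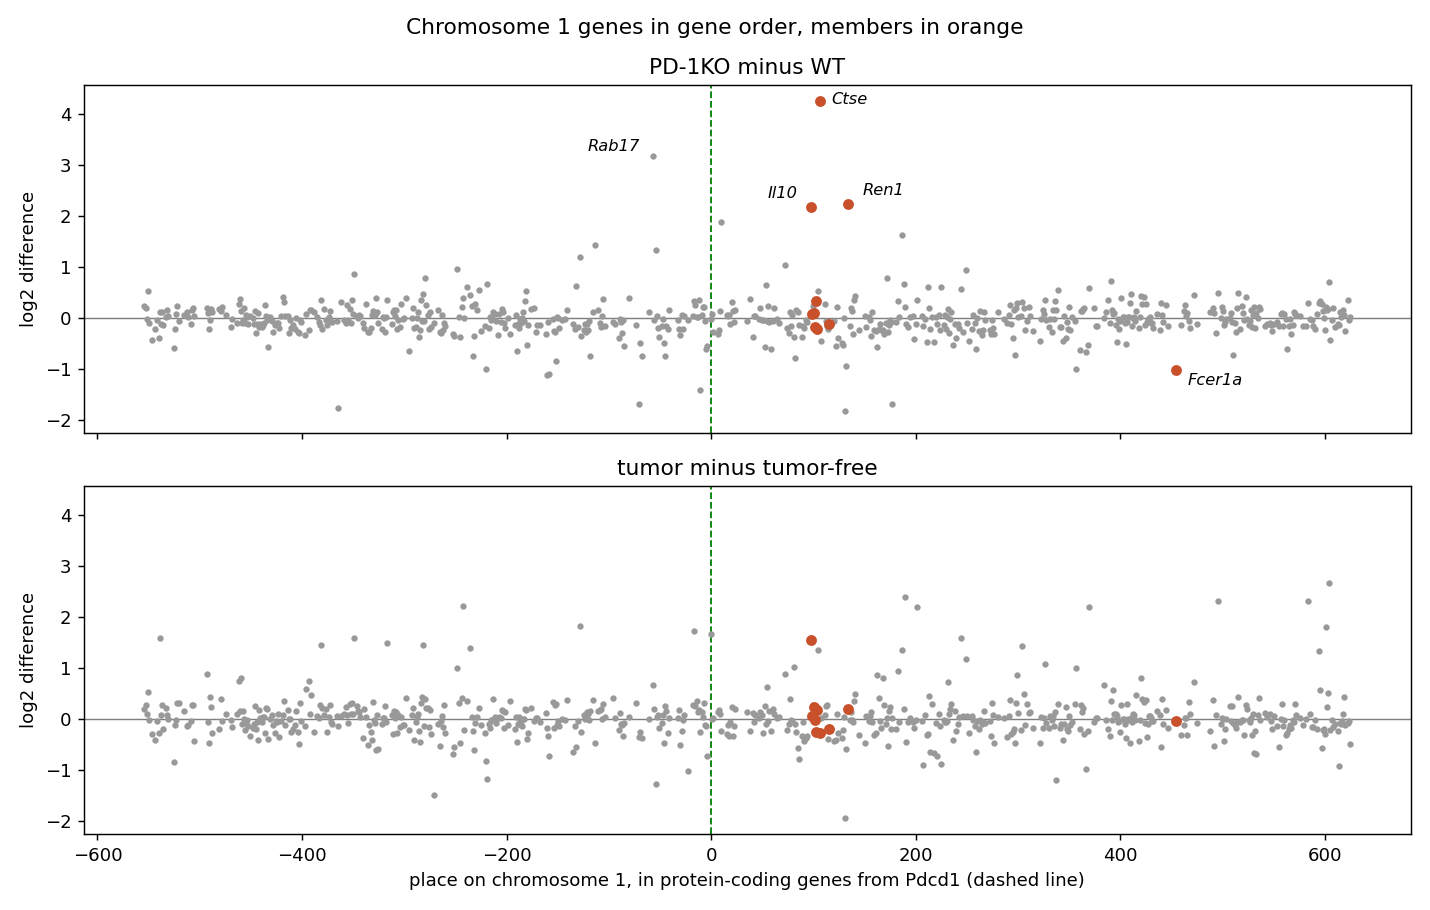
Log2 difference of 690 tested chromosome 1 genes against their place in gene order, counted from Pdcd1 (dashed line), for genotype (top) and tumor (bottom), with the 10 members in orange. Ctse (4.26), Rab17 (3.17), Ren1 (2.24) and Il10 (2.19) lie above 2 between 57 genes before and 134 genes beyond Pdcd1, where Rab17 and Ren1 were well above background on 0 WT arrays and Il10 on 2 of 4, and Fcer1a (-1.03) lies 455 genes beyond it.

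Within the stretch from 15 genes before Il10 to 15 beyond Ren1 there are 67 protein-coding genes, of which 40 were tested. Il10, Ctse and Ren1 were chosen by this contrast. Of the 31 tested genes that are no member, 0 passed the genotype test (limma), and 5 had an unadjusted p below 0.05, beside 10.4% of all features. The median absolute genotype difference of the 31 was 0.221, beside 0.144 over all features. The tested genes next to the differing members had smaller differences: Mapkapk2 beside Il10 was at 0.08, Fam72a and Rab7b on either side of Ctse at 0.53 (SE 0.17) and -0.45 (SE 0.18), and Golt1a and Sox13 on either side of Ren1 at -0.94 (SE 0.69) and -0.16 (SE 0.10). With 4 genes over 1 in size, the exception among the 31 was Plekha6 at -1.83, but its SE was 1.21. With age 5 of the 40 passed, 4 higher and 1 lower, which is 3 members (Il10, Ren1 and Ikbke) plus Nuak2, a stress kinase (0.80), and Lax1, an adaptor that dampens lymphocyte receptor signalling (1.12).

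**Figure D5:**
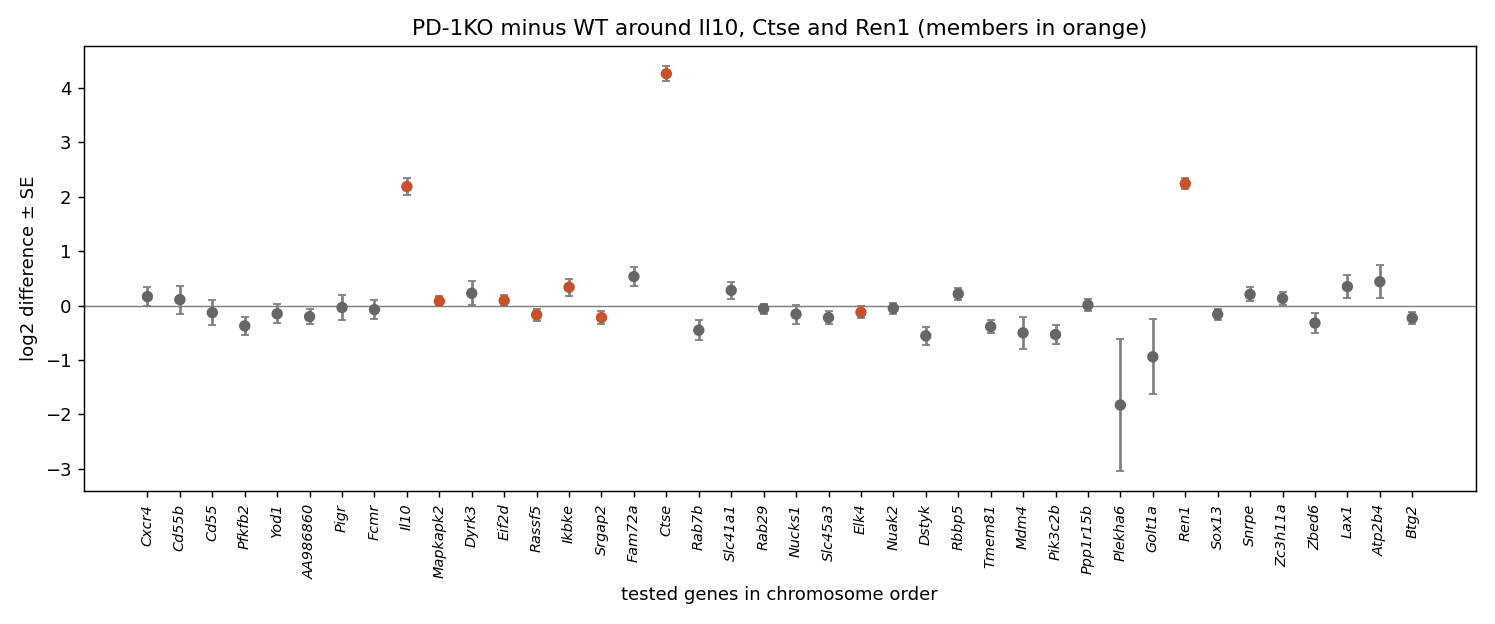
PD-1KO minus WT log2 difference, with its SE, of the 40 tested genes around Il10, Ctse and Ren1 in chromosome order, members in orange. Il10 (2.19), Ctse (4.26) and Ren1 (2.24) stand alone above 1, and Plekha6 (-1.83) has an SE of 1.21.

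The genes whose levels followed those of Ctse and Il10 most closely over the 8 arrays were on several chromosomes. Among 11717 genes with a symbol that were well above background on all 8 arrays, those most like Ctse were Prune1 (Pearson r 0.93), Art2b (0.93), Casp8 (0.92), Ifnl3 (0.92) and Gstp3 (0.89). Of these Casp8 is on chromosome 1, and their own genotype differences ran from 0.27 to 0.70, far below that of Ctse. Those most like Il10, among 11718, were Sccpdh (0.98, also on chromosome 1), Sdcbp2 (0.98), 9030619P08Rik (0.97), Tmem17 (0.97) and Cmc1 (0.96). They are a description of 8 arrays that share the same 3 factors.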

How the data were processed

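Per the file headers, each scanner file holds 1 array, read with Agilent Feature Extraction 11.0.1.1 (also in the submitters' processing notes). Its processed signal is a background-subtracted spot intensity on a linear scale, which the authors deposited without scaling between arrays. The deposited flags are 0 or 1 per spot for well above background, saturated and uneven spots. The deposited log2 value table holds 23971 probes, with a median of 9.10327 in each column and sorted columns that differ by at most 0.001569, as quantile normalization makes them; it was an alternative, holds probes of 7 of the 10 members, and the steps behind it are not given in the sources used here. File headers name the mouse build mm9, so for the probes the GRCm38.p6 gene table served only for names, chromosomes and gene order. The printed promoter stretches are also of GRCm38.p6.

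The log2 signal minus each array's 75th percentile was used. Of 56605 probes, 32989 got a RefSeq symbol and 23616 kept the file's name; 12 with a flagged spot were left out, and 27237 passed the filter (well above background on 4 or more arrays). The brightest probe stood for a gene. limma 3.58.1 (R 4.3.3, data.table version 1.17.8) fitted age, genotype and tumor additively (4 residual degrees of freedom, prior 2.7), with 2-sided p-values adjusted by Benjamini-Hochberg over all 21232 features and a threshold of 0.05. The script was tested on simulated data. The members and lists were chosen with earlier results of these data known. Named genes were the members, Pdcd1, the 5 most like Ctse and Il10, and up to 3 of the largest age changes per pathway list. For Il10's pathway and the mast cell list, all genes past the age threshold were named. Others were chosen after their values were seen. Alternatives were other scalings, normexp (offset 50), filters, probe means, the deposited table, a model with interactions (1 residual degree of freedom), an intensity trend, symbols alone, matched pairs as a block (added after seeing the data) and each array left out.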

Additional observations from a re-analysis of the deposited data

Results flagged for a closer look

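The tumor minus tumor-free difference of Fcer1a ran in opposite directions at the 2 ages. In aged mice it was 0.0377 (WT) and 0.0142 (PD-1KO), and in young mice -0.0506 (WT) and -0.159 (PD-1KO), on the log2 scale. All 4 values are small, and Fcer1a was not well above background on 4 of the 8 arrays. The difference between the ages was 0.13 (SE 0.27, adjusted p = 0.999, limma with interactions). It was smaller than its SE, which rests on 1 residual degree of freedom and not on replicate arrays.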

How the results depend on the processing

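Of the single values and counts that answer a comparison, 101 kept their direction and side or size under an alternative and 51 did not. Of the others 411 did, while 12 moved, 20 lost and 5 gained a call. No called value changed sign, but 12 values of 5 uncalled differences did: Srgap2 with genotype (0.12 with the mean of probes), Rassf5 with age and tumor, and Fcer1a and Mapkapk2 with tumor. The genotype calls over all features, 6 as reported, were 1 with normexp, 2 with the filter on all 8 arrays, 2 with no filter, 2 in the authors' deposited table, 0 with interactions and 3 with an intensity trend, and 2 to 3 with an array left out. On chromosome 1 the 4 became 1, 1, 2, 1 and 0 under the first 5 of these, and 2 (Ctse and Ren1) with any array left out. In the stretch around the members the 3 became 1 with normexp and 1 with the filter on all 8 arrays. The members called with genotype were chosen by this contrast in these same arrays, so the counts describe them and do not test them. Ctse was called in every setting except the model with interactions. The 4 members called with age were 1 with the filter on all 8 arrays, 2 with no filter and 1 in the deposited table. With interactions they were 2, and with an array left out 2 to 3. Ren1, Il10 and Fcer1a were not tested with the filter on all 8 arrays or in the deposited table. The lower counts in these settings, for genotype, the stretch and age alike, are therefore in part genes not tested. The 0 members called with tumor became 1 (Il10) with quantile normalization, no scaling, the mean of probes and an intensity trend, and 0 to 1 with an array left out. Normexp gave a genotype difference of 0.92 for Ren1, 1.38 for Il10 and -0.39 for Fcer1a; for Fcer1a quantile normalization gave -0.98 and no scaling -0.95. Ren1, Il10 and Fcer1a lie near background on several arrays, so their folds depend on how background is treated. The 55 features at an unadjusted p below 0.001 for genotype, a rule chosen after seeing the data, were 89 with no filter, 35 without the aged WT array and 27 without the aged PD-1KO array. With symbols alone tested the genotype calls were the 4 members. Each group has 1 array, so no replicate numbers pair the arrays. Taking the 4 pairs of arrays that differ in 1 factor alone as a block, added after seeing the data (3 residual degrees of freedom), gave 2 genotype calls over all features and 2 on chromosome 1 (Ctse and Ren1), 4 members with age and 0 with tumor.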
